A study of Bos taurus with 16 samples.

Results

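The genes described here encode the coats, cargo receptors and fusion proteins of vesicle traffic between the endoplasmic reticulum (ER), the Golgi and the plasma membrane. Membership went by gene symbol, under a rule set with earlier results of these data known. A transcript cluster of the array belonged to the set if its annotation gave exactly 1 symbol that met the rule. Symbols beginning with TMED, SEC22, SEC23, SEC24, SEC31, SEC16, SFT2D, VAMP, STXBP, COPZ, COPG, COPB or STX plus a digit met it. So did symbols equal to COPA, COPE, SEC13, SAR1A, SAR1B or ARCN1. Of 26773 transcript clusters (the probe sets that each stand for 1 transcript unit), 66 met the rule, 1 for each of 66 genes. By role they were 14 genes of the COPII coat and its GTPase, 8 of the COPI coat, 10 p24 cargo receptors, 10 vesicle SNAREs with the SEC22 proteins, 15 syntaxins, 6 syntaxin-binding proteins and 3 SFT2 domain proteins.

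Liver RNA was measured in 16 crossbred steers, 1 Affymetrix Bovine 1.1 ST array per steer. The steers were males, not yet yearlings at the start of the trial, and ate a high-concentrate finishing diet with distillers grains freely for 78 days. They were the animals farthest from the average of a larger trial in each direction of weight gain and feed intake, which gave 4 groups of 4 separate steers: high gain-high intake (HG-HI), high gain-low intake (HG-LI), low gain-high intake (LG-HI) and low gain-low intake (LG-LI). The diet, which included Steakmaker with Tylan, was shared, and no treatment set the groups apart. The groups differ in how the animals grew and ate. Several limits come with these groups as a model. Per the study's methods their mix of breeds was not the same, RNA integrity varied between samples, and 1 steer of each group was harvested on each of several days, a pairing that the sample labels do not record. The tissue was a piece of whole liver, in which fewer cells of a type and less RNA per cell cannot be told apart.

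Newly made proteins leave the ER in vesicles whose COPII coat is assembled by the small GTPase SAR1, with SEC23 and SEC24 as the inner layer and SEC13 and SEC31 as the outer cage. COPI vesicles, coated by the coatomer complex, carry escaped ER proteins and recycling receptors back, and p24 (TMED) proteins travel in both directions as cargo receptors. Fusion with the target membrane is driven by SNARE proteins, with a VAMP or SEC22 on the vesicle pairing with a syntaxin on the target under the control of syntaxin-binding proteins. Hepatocytes use this route for albumin, clotting factors and lipoproteins.

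All values are log2 signals. Differences between groups are within a gene, and signal level is set across genes only to say which are dim or bright on the array, since probes differ. Of the 66 genes, 55 had a mean at or above the median of all transcript clusters, and 2 (STXBP5L and VAMP1) lay below the 25th percentile of the array on at least 8 arrays, where changes are hard to see. Hepatocyte markers marked the tissue as liver: all 10 listed genes had mean signals at or above percentile 72.4 of the arrays, up to percentile 100 for ALB, which encodes albumin. Array medians formed 2 sets of 8, 7.41 to 7.47 (set 1) and 7.16 to 7.28 (set 2), which the labels do not explain and which were split at the widest gap. Set 1 held 1 HG-HI, 2 HG-LI, 2 LG-HI and 3 LG-LI steers. With groups in the model, the sets differed in 23 of the 66 genes (34.8%, adjusted p below 0.05 in limma) and in 29.8% of all transcript clusters. The value was lower in set 2 in 22 of the 23, a direction called in 25.3% of all transcript clusters, so that differences within each set are given beside the values of the called genes.

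Which of these genes differed with gain, with intake or with the combination of both was asked with a single limma model over the 16 steers. The gain effect is the mean of the high gain groups minus that of the low gain groups, the intake effect is the same for intake, and the interaction is the gain effect at high intake minus the gain effect at low intake. A positive interaction therefore means that the HG-HI and LG-LI means together exceeded the HG-LI and LG-HI means together, which does not place each group above each other group. No gene of the set passed an adjusted p of 0.05 in limma. The lowest adjusted p of a member was 0.9998 over the 4 groups, 0.9984 for intake and 0.9999 for gain and the interaction alike, and the lowest of any transcript cluster over the 4 groups was 0.128. Genes are described as called where the unadjusted p was at most 0.05. This gave 2 of 66 members over the 4 groups (2.33% of all transcript clusters), 3 for gain (3.48%), 5 for the interaction (2.81%) and 1 for intake (2.86%). Apart from the interaction, the share of members was close to the background. For the interaction all 5 were positive, and 1.15% of all transcript clusters were called in that direction. The 8 genes called in one or more of these comparisons are given by steer below, and each p-value for them is unadjusted.

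**Figure D1:**
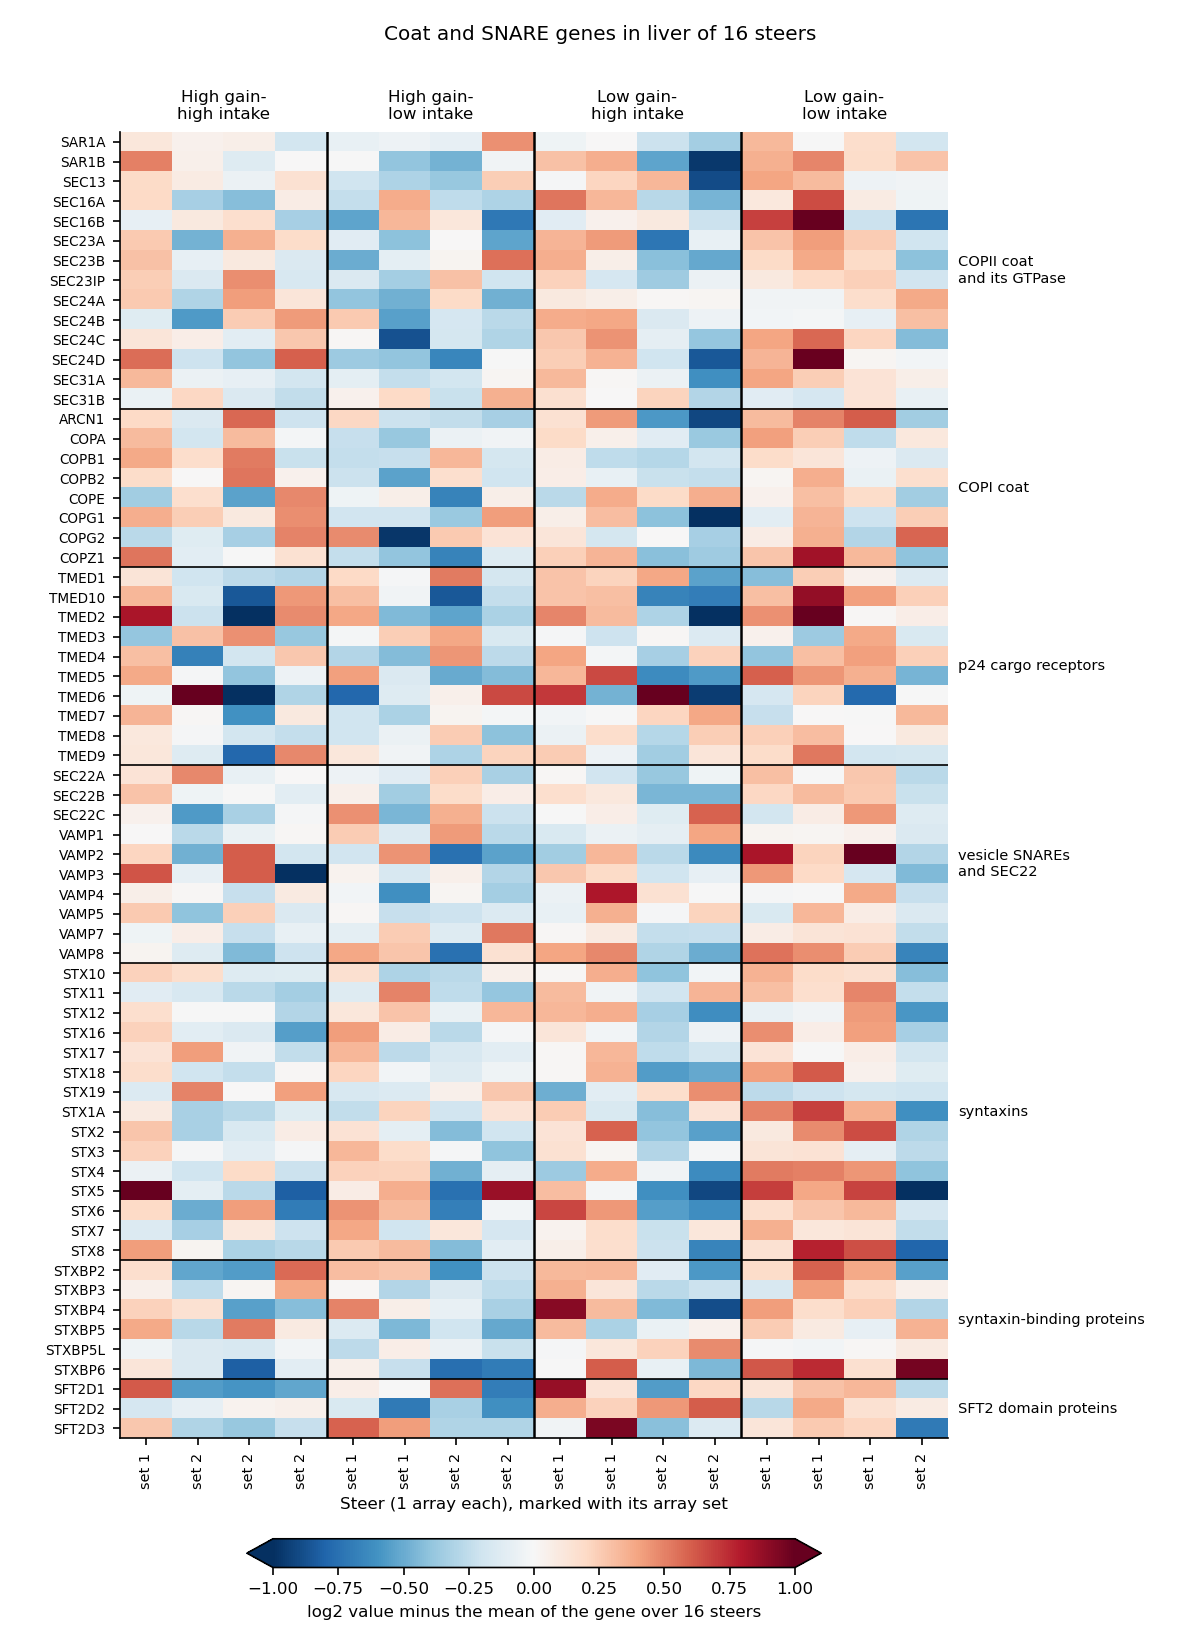
Heat map of the 66 genes (rows, by role) in the 16 steers (columns, by group, each marked with its array set). Colour is the log2 value minus the mean of the gene over the 16 steers, cut at 1 in either direction. COPI and COPII genes are mostly blue in the HG-LI steers and mostly red in the LG-LI steers of set 1.

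Among the 14 COPII genes, 13 had a positive interaction, with a median of 0.45, against a median of -0.04 and 44.9% positive over all transcript clusters. Their mean levels ran from 7.18 to 15.06, and brighter transcript clusters tended to have higher interactions. In all transcript clusters with a mean of 10 or more, the median was 0.13 and 64.5% were positive. SAR1B and SEC24D were called. Averaged over the 14 genes and set against each array's own median, the coat stood at 3.57 ± 0.07 in HG-HI and 3.61 ± 0.11 in LG-LI steers, against 3.31 ± 0.19 in HG-LI and 3.41 ± 0.21 in LG-HI steers (log2, SD, n = 4). The 4 groups are therefore separated by amounts near their own spread. The mean interaction of the 14 genes, on the values as deposited, was 0.40 over all steers, 0.44 within array set 1 and 0.29 within array set 2.

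SAR1B is the SAR1 form that human liver and gut need to export lipoproteins, and its loss in people causes chylomicron retention disease. Its log2 values were 15.56, 15.11, 14.93 and 15.06 in HG-HI steers and 15.42, 15.55, 15.24 and 15.34 in LG-LI steers. They were 15.06, 14.67, 14.59 and 15.03 in HG-LI steers and 15.35, 15.43, 14.54 and 14.10 in LG-HI steers. Each LG-LI steer lay above each HG-LI steer, while the LG-HI steers were split, with those of array set 1 near the top of all steers and those of set 2 at the bottom. The interaction was 0.87 (SE 0.37, limma p = 0.032, two-sided exact permutation p = 0.0292). It was 0.71 within set 1 and 1.25 within set 2. SAR1B itself was 0.45 lower in set 2, with groups in the model (adjusted p = 0.046). SAR1A, the other SAR1 form, had an interaction of 0.17 (SE 0.24).

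SEC24D is 1 of the SEC24 forms that bind the cargo of a COPII vesicle. HG-HI steers had 10.997, 10.23, 10.05 and 11.04, and LG-LI steers had 10.78, 11.43, 10.46 and 10.41. The values were 10.07, 10.05, 9.79 and 10.43 in HG-LI steers and 10.69, 10.79, 10.24 and 9.59 in LG-HI steers. All 4 groups overlapped, and the highest steer of all was a LG-LI animal. The interaction of SEC24D was 0.94 (SE 0.43, limma p = 0.0469), and the exact permutation over steers gave p = 0.0552. It was 1.09 within array set 1 and 0.82 within set 2.

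Of the other SEC24 forms, SEC24A had an interaction of 0.49 (SE 0.27) and SEC24C of 0.55 (SE 0.35). SEC24A is also the COPII gene with the largest intake effect, 0.17 (SE 0.13), and SEC24C the one with the largest gain effect, at -0.25 (SE 0.17), both within the spread between steers. The outer cage gene SEC31A averaged 13.55 ± 0.22 in HG-HI and 13.76 ± 0.15 in LG-LI steers, against 13.42 ± 0.11 in HG-LI and 13.46 ± 0.39 in LG-HI steers (SD, n = 4). SEC31B, the lowest of the COPII genes in signal, was the 1 gene of the 14 with a negative interaction, at -0.23 (SE 0.24).

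In the COPI coat, 7 of 8 genes had a positive interaction, with a median of 0.55. COPB2 and COPZ1 were called, and ARCN1, COPA, COPB1 and COPG1 had values from 0.47 to 0.74 with unadjusted p-values of 0.0693 to 0.0934. COPE, the epsilon subunit, was the exception at -0.03 (SE 0.35). The mean of the 8 genes minus the array median was 3.95 ± 0.09 in HG-HI and 3.89 ± 0.14 in LG-LI steers, against 3.62 ± 0.25 in HG-LI and 3.66 ± 0.16 in LG-HI steers (log2, SD, n = 4). On the values as deposited, the mean interaction of the 8 genes was 0.51, and it was 0.46 within array set 1 and 0.48 within set 2. No COPI gene was called for gain or for intake, and the medians of the 8 genes were -0.05 for gain and 0.05 for intake.

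COPB2 encodes the beta-prime subunit of coatomer, which binds the retrieval signal of ER proteins. Its values were 12.74, 12.57, 13.10 and 12.60 in HG-HI steers and 12.58, 12.93, 12.49 and 12.73 in LG-LI steers. They were 12.35, 12.03, 12.73 and 12.36 in HG-LI and 12.62, 12.49, 12.34 and 12.33 in LG-HI steers. With the exception of 1 HG-LI steer at 12.73, every HG-LI and LG-HI steer was at or below 12.62. The groups still overlapped, since HG-HI steers at 12.57 and 12.60 and LG-LI steers at 12.58 and 12.49 were also below it. The interaction was 0.62 (SE 0.25, limma p = 0.0261, exact permutation p = 0.00917). Within the array sets it was 0.66 and 0.61, and COPB2 is a gene for which the sets barely differed (0.05). The gain effect was 0.31 at high intake and -0.31 at low intake, so that averaged over intake it was close to 0.

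COPZ1, the small zeta subunit, had 11.40, 10.76, 10.86 and 11.01 in HG-HI steers and 11.14, 11.70, 11.19 and 10.46 in LG-LI steers. The values were 10.63, 10.47, 10.20 and 10.74 in HG-LI and 11.10, 11.20, 10.45 and 10.51 in LG-HI steers. Each HG-HI steer lay above each HG-LI steer, whereas the low gain groups overlapped over most of their range. The interaction of COPZ1 was 0.81 (SE 0.36, limma p = 0.0415, exact permutation p = 0.0458). It was 1.04 within array set 1 and 0.39 within set 2, and COPZ1 was 0.52 lower in set 2 (adjusted p = 0.0136).

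ARCN1, the delta subunit, averaged 13.13 ± 0.36 in HG-HI and 13.29 ± 0.43 in LG-LI steers, against 12.88 ± 0.24 in HG-LI and 12.80 ± 0.62 in LG-HI steers (SD, n = 4), with an interaction of 0.74 (SE 0.41). It was 0.38 within array set 1 and 0.76 within set 2, ARCN1 being 0.58 lower in set 2 (adjusted p = 0.0174). With the set as a block the interaction was called (limma p = 0.0296, exact permutation within sets p = 0.0159), and it was also called with array medians subtracted. COPG2, a gamma subunit, had the largest intake effect of the coat at -0.15 (SE 0.21). COPE averaged 8.68 ± 0.47 and 8.59 ± 0.35 in the high gain groups at high and low intake, against 8.90 ± 0.30 and 8.78 ± 0.28 in the low gain groups.

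**Figure D2:**
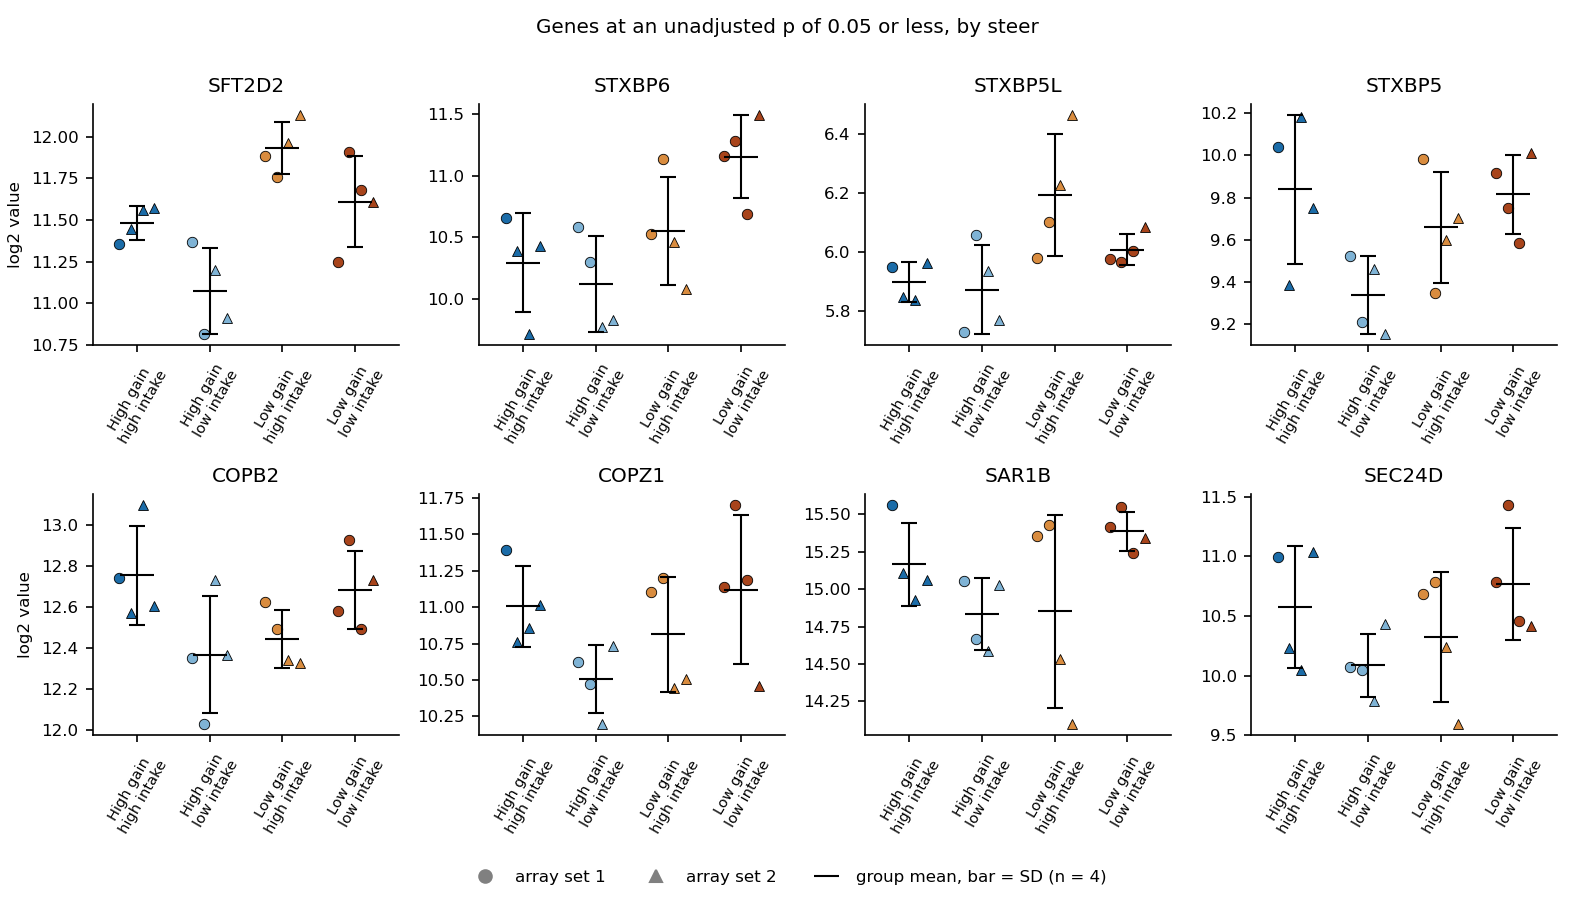
Log2 values of the 8 genes with an unadjusted p of 0.05 or less, 1 point per steer (circles array set 1, triangles array set 2), with the group mean and SD (n = 4). SFT2D2 is lower in the high gain groups at both intakes, STXBP6 differs mostly at low intake, and the lower row shows coat genes with a low HG-LI group.

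The p24 receptors form hetero-oligomers that select cargo such as GPI-anchored proteins. None of the 10 was called in any comparison over all steers without the array set in the model. Leaving out single steers did give calls. TMED10 and TMED2 were called for a positive interaction without HG-HI steer 20133390 (3.17% of all transcript clusters in either direction). TMED1 was called for a negative interaction without LG-HI steer 20133452 (2.39% in either direction). The p24 gain effects were negative in 9 of 10 genes, with a median of -0.18, against -0.04 over all transcript clusters, of which 41.7% were positive. Once the model also held the array set, the gain effect was 0.02 in TMED1, 0.09 in TMED3 and 0.01 in TMED5. It stayed negative in the other p24 genes. TMED10, the largest of the p24 genes in the gain, intake and interaction effects alike, had -0.26 (SE 0.23), -0.25 (SE 0.23) and 0.79 (SE 0.46). It averaged 12.89 ± 0.59 in HG-HI and 13.40 ± 0.29 in LG-LI steers, against 12.74 ± 0.48 in HG-LI and 12.75 ± 0.56 in LG-HI steers (SD, n = 4). The interaction of TMED10 was 0.43 within array set 1 and 1.27 within set 2, and the gene was 0.65 lower in set 2 (adjusted p = 0.0187). With the set as a block it was called (limma p = 0.038, exact permutation within sets p = 0.0433). TMED2, its usual partner, had an interaction of 0.73 (SE 0.60), TMED7 had -0.03 (SE 0.28) and TMED1 had -0.45 (SE 0.32).

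Steers differed more in 1 p24 gene than in any other member. TMED6, singled out after its values were seen, ranged from 8.74 to 13.09, with a pooled SD of 1.11 within groups, against a median of 0.34 over the members. Its highest value, 13.09, was in a LG-HI steer, and its lowest, 8.74, in a HG-HI steer. A second HG-HI steer had 12.42, so that this 1 group held the lowest and the second highest of the 16 values. The group comparison was correspondingly wide, with an interaction of -0.71 (SE 0.99).

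The 10 vesicle SNAREs and SEC22 proteins gave no call in limma with groups alone in the model and equal weight for each array. SEC22B, which drives ER to Golgi fusion, averaged 11.30 ± 0.17 in HG-HI and 11.41 ± 0.24 in LG-LI steers, against 11.26 ± 0.23 in HG-LI and 11.11 ± 0.35 in LG-HI steers (SD, n = 4). VAMP2, known from regulated fusion at the plasma membrane, had the largest interaction of the 66 genes at 0.97 (SE 0.47, limma p = 0.0564, exact permutation p = 0.0696). It was 0.79 within array set 1 and 0.78 within set 2, VAMP2 being 0.61 lower in set 2 (adjusted p = 0.0353), and with the set as a block the limma p was 0.0215 (exact permutation within sets p = 0.02). VAMP2 was also called with array medians subtracted and after quantile normalization. The same held without HG-HI steer 20133356 (2.57% of all transcript clusters), HG-LI steer 20133110 (2.43%), LG-HI steer 20133173 (3.4%) or LG-LI steer 20133403 (3.07%). Its values were 8.22, 7.52, 8.61 and 7.82 in HG-HI and 8.81, 8.22, 9.05 and 7.70 in LG-LI steers, against 7.81, 8.45, 7.26 and 7.46 in HG-LI and 7.65, 8.34, 7.73 and 7.37 in LG-HI steers. Each of its 4 groups overlapped the others. VAMP4, of the trans-Golgi network, had a gain effect of -0.26 (SE 0.15) and an intake effect of 0.21 (SE 0.15). These are the same directions as in SFT2D2, and neither effect was called with equal weight for each array. VAMP7, of late endosomes and lysosomes, had an interaction of -0.09 (SE 0.25), and the dim VAMP1 of -0.19 (SE 0.25).

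Syntaxins, the target membrane SNAREs, were also without a call in 15 genes in the limma model of the deposited values over all 16 steers. With array weights STX11 and STX19 were called for gain (8.38% of all transcript clusters). STX1A was then called over the 4 groups (5.96%) and for intake (5.42%). Leaving out single steers also gave calls of STX1A, STX4, STX11, STX18 and STX19. The interaction was positive in 11 of them with a median of 0.14, and the gain effect positive in 5 with a median of -0.06. STX11, which acts in the granules of cytotoxic lymphocytes, had the largest gain effect, at -0.29 (SE 0.15, limma p = 0.0739, exact permutation p = 0.0592). It averaged 6.37 ± 0.10 and 6.52 ± 0.39 in the high gain groups at high and low intake, against 6.69 ± 0.26 and 6.76 ± 0.31 in the low gain groups. STX5, the Golgi syntaxin that pairs with SEC22B, was the most variable of the syntaxins and had the largest intake effect, -0.31 (SE 0.33). STX2 (interaction 0.40, SE 0.37), STX8 (0.31, SE 0.44), STX17 (0.15, SE 0.27) and STX19 (-0.04, SE 0.29) completed the named syntaxins, with groups that overlapped.

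All 6 syntaxin-binding genes had a negative gain effect, with a median of -0.15, where 41.7% of all transcript clusters were positive. Once the model also held the array set, the effect was 0.02 in STXBP2 and 0.07 in STXBP4. It stayed negative in the other genes of this role. Of the 6, 3 were called. STXBP6 and STXBP5L were lower in high gain steers, a direction called in 2.29% of all transcript clusters. STXBP5 was called for a positive interaction (1.15%).

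STXBP6, or amisyn, binds syntaxin in place of a VAMP and restrains fusion. Its values were 10.65, 10.39, 9.72 and 10.43 in HG-HI and 10.58, 10.30, 9.78 and 9.83 in HG-LI steers. LG-HI steers had 10.52, 11.13, 10.46 and 10.08, and LG-LI steers had 11.16, 11.28, 10.69 and 11.49. At low intake no high gain steer reached the lowest low gain steer, while at high intake the gain groups overlapped. The 4 groups differed with limma p = 0.00813 (exact permutation p = 0.0168), and the gain effect was -0.64 (SE 0.19, limma p = 0.00391, exact permutation p = 0.012). It was -0.39 within array set 1 and -0.89 within set 2, and it was -0.25 at high intake and -1.03 at low intake. The difference between those last 2 values, the interaction, was 0.77 (SE 0.38) and was not called (limma p = 0.0583, exact permutation p = 0.15). It was called with the set as a block (limma p = 0.0394), where the exact permutation within sets gave p = 0.098, and with array medians subtracted. It was 0.42 within set 1 and 1.59 within set 2.

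STXBP5L and STXBP5 encode tomosyns, which also occupy syntaxins and hold back fusion, STXBP5L mainly in neurons. STXBP5L was dim on these arrays, below the 25th percentile on 14 of 16. It had 5.95, 5.84, 5.83 and 5.96 in HG-HI and 5.73, 6.05, 5.93 and 5.77 in HG-LI steers, against 5.98, 6.10, 6.23 and 6.46 in LG-HI and 5.98, 5.97, 6.001 and 6.09 in LG-LI steers. With 1 exception, a HG-LI steer at 6.05, the high gain steers lay below all low gain steers, but by small amounts. The gain effect was -0.22 (SE 0.10, limma p = 0.0484, exact permutation p = 0.00482), -0.09 within array set 1 and -0.35 within set 2. The nerve terminal markers SYT1, SNAP25, SYP and RBFOX3 lay between percentiles 19.2 and 55.7 of the arrays, with gain effects that were positive in 2 of 4.

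STXBP5 had 10.04, 9.38, 10.18 and 9.75 in HG-HI and 9.92, 9.75, 9.58 and 10.01 in LG-LI steers. It had 9.52, 9.21, 9.46 and 9.15 in HG-LI and 9.98, 9.35, 9.60 and 9.70 in LG-HI steers. Each LG-LI steer lay above each HG-LI steer, and the high intake groups overlapped. The interaction of STXBP5 was 0.66 (SE 0.28, limma p = 0.0307, exact permutation p = 0.03), 0.76 within array set 1 and 0.82 within set 2, with a set difference of -0.02. Its gain effect was 0.18 at high intake and -0.48 at low intake.

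SFT2D2 gave the smallest p-values of the set. SFT2 domain proteins resemble yeast Sft2, a Golgi membrane protein involved in the fusion of endosome-derived vesicles with the Golgi. The values were 11.36, 11.44, 11.56 and 11.58 in HG-HI and 11.37, 10.81, 11.20 and 10.91 in HG-LI steers, against 11.89, 11.76, 11.96 and 12.13 in LG-HI and 11.25, 11.91, 11.68 and 11.61 in LG-LI steers. At high intake the gain groups did not overlap, and at low intake 1 low gain steer, at 11.25, lay among the high gain steers. The other 7 low gain steers were above all 8 high gain steers.

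The gain effect of SFT2D2 was -0.49 (SE 0.12, limma p = 0.001, exact permutation p = 0.00342), -0.49 within array set 1 and -0.54 within set 2. It was -0.45 at high intake and -0.54 at low intake, with an interaction of 0.09 (SE 0.25). The intake effect was 0.37 (SE 0.12, limma p = 0.00883, exact permutation p = 0.0434), 0.24 within set 1 and 0.45 within set 2. The exact permutation p was 0.0549 when steers were exchanged within array sets only. SFT2D2 was the only member called for intake, and it was higher in high intake steers, a direction in which 1.23% of all transcript clusters were called. The other SFT2 genes did not share these differences beyond their spread: the gain effect was -0.28 (SE 0.24) for SFT2D1 and -0.06 (SE 0.22) for SFT2D3, and the intake effects were -0.10 and -0.07.

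**Figure D3:**
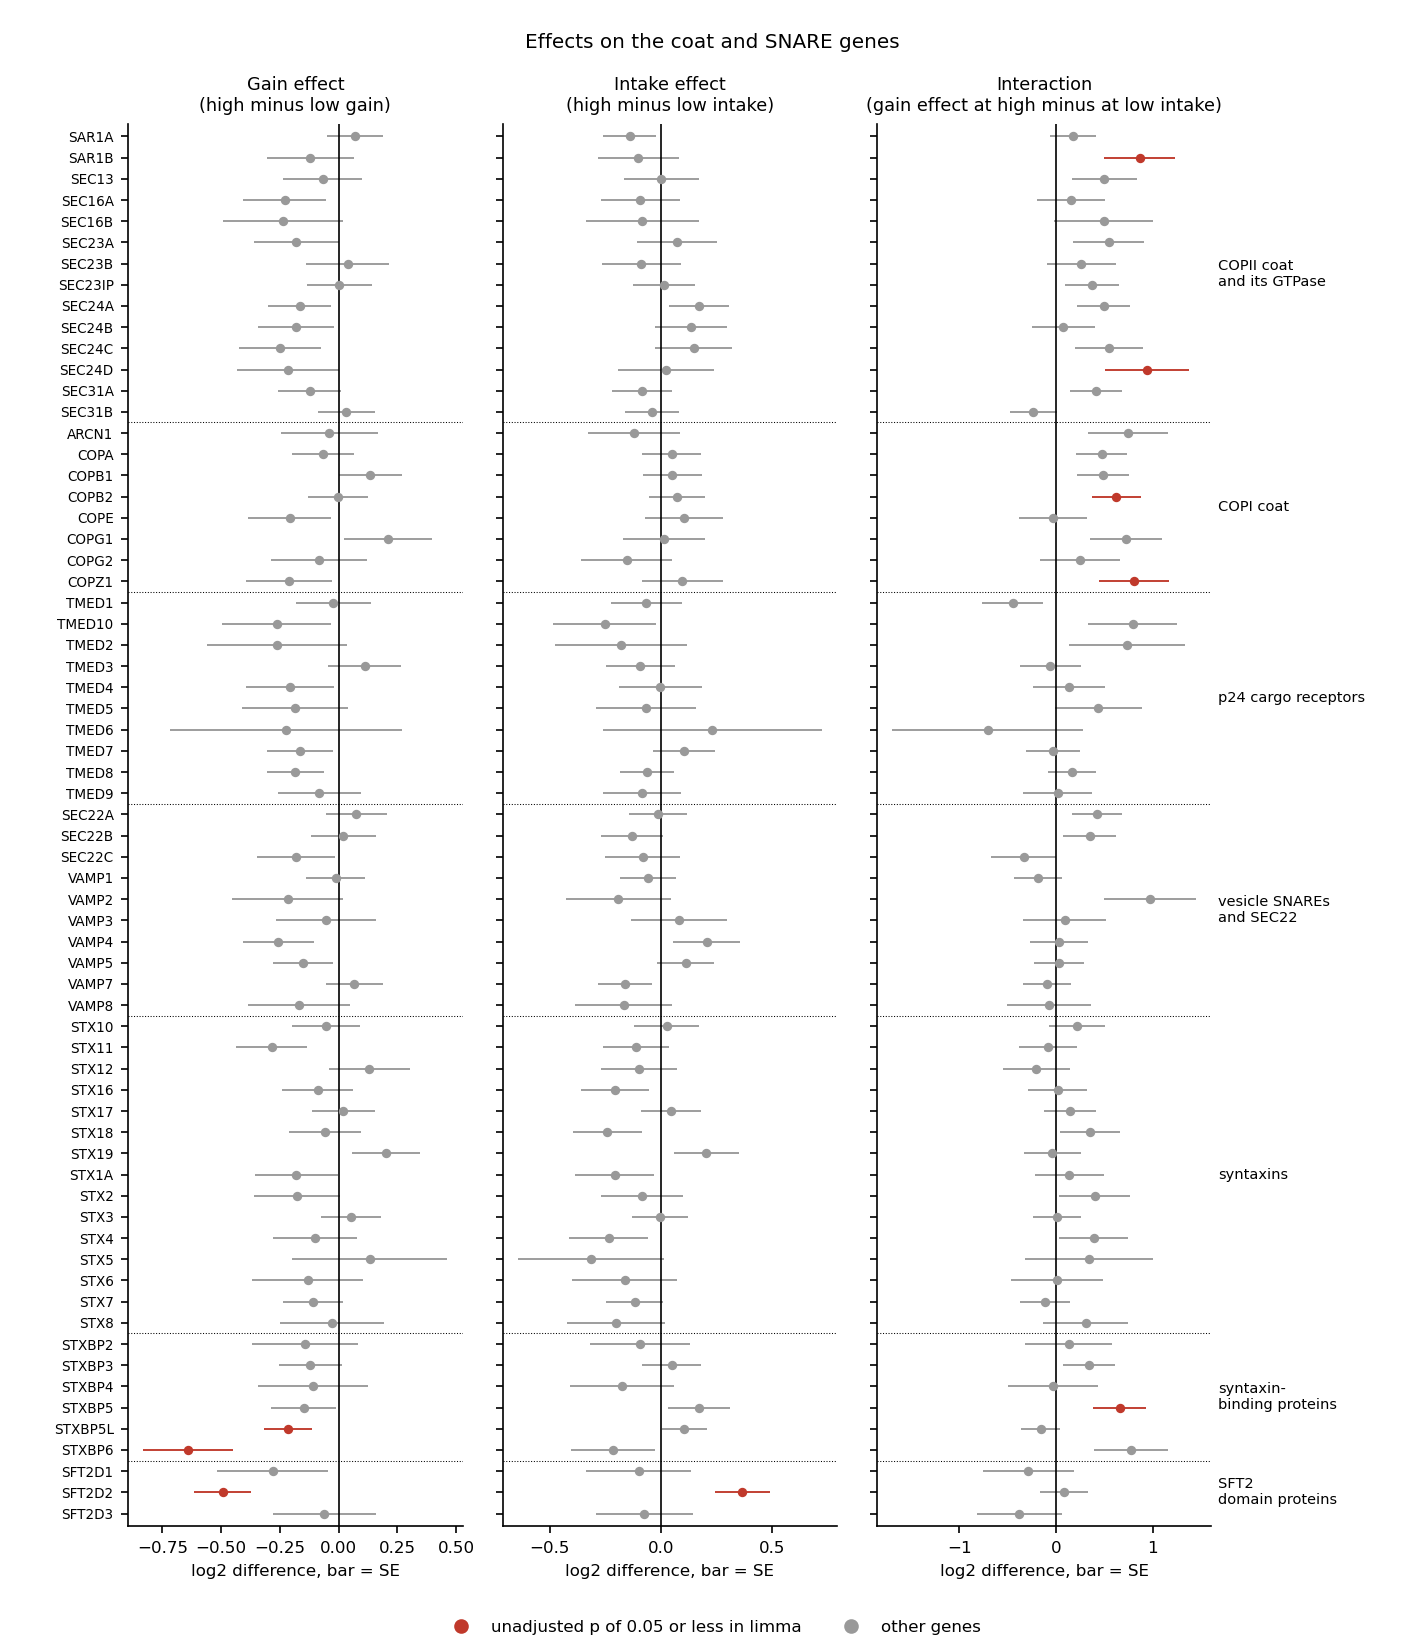
Gain effect, intake effect and interaction of each of the 66 genes in log2 units with the SE of the limma fit, by role, in red where the unadjusted p was 0.05 or less. Gain effects lie mostly left of 0 (15 of 66 positive, 29 with the array set as a block), and interactions of the coat genes lie mostly right of 0 (13 of 14 in COPII and 7 of 8 in COPI).

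Seen together, the 66 genes leaned in 2 directions. Gain effects were positive in 15 of 66 with a median of -0.12, while over all transcript clusters 41.7% were positive with a median of -0.04, and all 3 genes called were lower in high gain steers (2.29% of all transcript clusters were called in that direction). This lean of the gain effect moved with the array sets. With the set as a block 29 of 66 were positive with a median of -0.03, against 53.4% and 0.01 over all transcript clusters, and the mean gain effect of the 66 genes was -0.13 within set 1 and 0.08 within set 2. Interactions were positive in 48 of 66 with a median of 0.17, and the mean over the 66 genes was 0.29 within set 1 and 0.11 within set 2. Roles differed in this respect. The median interaction was 0.55 in COPI, 0.45 in COPII and 0.24 in syntaxin-binding genes, against 0.08 in p24 genes, 0.03 in vesicle SNAREs and -0.28 in SFT2 genes. Intake effects were positive in 25 of 66 with a median of -0.07 (42.4% and -0.03 over all transcript clusters). The genes share the same 16 arrays, so that these counts are not 66 separate observations.

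The order of the groups showed the same lean. The LG-LI group had the highest of the 4 means in 38 of 66 genes, where it had it in 32.0% of all transcript clusters, and the HG-LI group had the lowest in 32 of 66 (22.6% of all). With each array's median subtracted these were 32 of 66 (27.3%) and 32 of 66 (24.7%). Among steers, the mean of the 66 genes minus the array median was lowest in a HG-LI steer, at 2.14, and highest in a LG-LI steer, at 2.60.

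**Figure D4:**
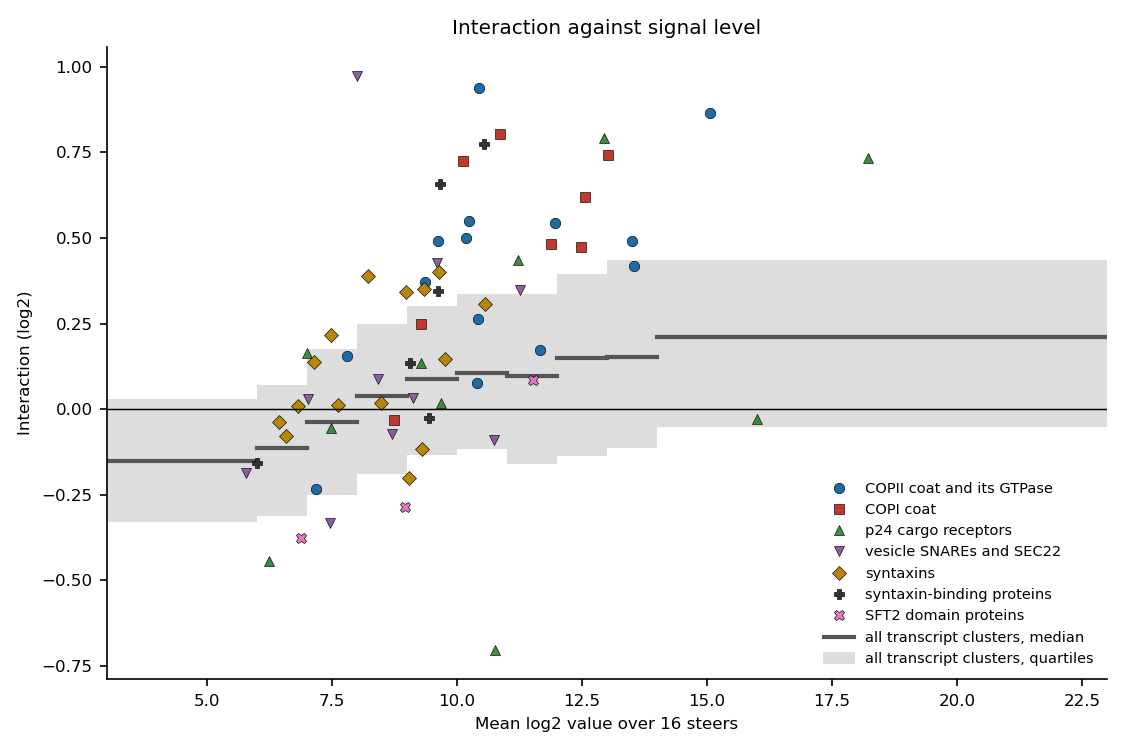
Interaction (log2) of each of the 66 genes against its mean log2 value over 16 steers, by role, over the median and quartiles of all transcript clusters in ranges of mean level. The medians of all transcript clusters climb with level, and most COPI and COPII genes lie above the upper quartile of their range.

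Signal level moved with the interaction. Over all transcript clusters its median was -0.15 at a mean level of 3 to 6 and 0.21 at a level of 14 to 23. The 26 members with a mean of 10 or more had a median interaction of 0.49, with 23 positive and 4 called, against a median of 0.13, 64.5% positive and 2.4% called positive in the 4534 transcript clusters at these levels. The 40 members below 10 had a median of 0.03 with 25 positive, against -0.07 and 40.9% positive in all transcript clusters below 10. After quantile normalization the trend with level ran over -0.04 to 0.06, and the median of the 66 genes was 0.20.

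Leaving out single steers moved the calls. Percentages in brackets are the shares of all transcript clusters called in the same fit. For the interaction the number of members called was 1 without HG-HI steer 20133015 (3.09%), HG-LI steer 20133110 (2.43%) or LG-LI steer 20133179 (2.48%). It was 2 without LG-HI steer 20133327 (2.91%) or LG-LI steer 20133101 (2.63%). It was 3 without LG-HI steer 20133452 (2.39%) and 8 without LG-HI steer 20133173 (3.4%). COPB2 kept its call without any 1 of 13 steers and lost it without steer 20133390 (0.51), 20133110 (0.51) or 20133179 (0.54). SAR1B lost it without steer 20133015, 20133110, 20133337, 20133327, 20133452 or 20133179, with values of 0.61 to 0.81. STXBP5 lost it without steer 20133015, 20133390, 20133110, 20133697, 20133173, 20133101 or 20133403 (0.54 to 0.62). COPZ1 lost it without steer 20133015, 20133412, 20133110, 20133337, 20133327, 20133452, 20133101, 20133179 or 20133181 (0.61 to 0.80). The same held for SEC24D without steer 20133015, 20133412, 20133045, 20133110, 20133337, 20133327, 20133452, 20133101 or 20133179 (0.69 to 0.93). The gain call of STXBP5L was kept without steer 20133110, 20133062 or 20133173 and lost without any of the other 13, with values of -0.23 to -0.17. SFT2D2 over the 4 groups, for gain and for intake, and STXBP6 over the 4 groups and for gain, kept their calls without each of the 16 steers in turn. LG-LI steer 20133403 is the only one of its group in array set 2. Without this steer 6 members were called over the 4 groups (3.53%), 5 for gain (5.08%) and 3 for intake (5.19%). For intake 2 were called without LG-HI steer 20133062 (4.04%) or 20133173 (3.85%).

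With the array set as a block, 9 members were called for the interaction, all positive (1.96% of all transcript clusters), and with array medians subtracted 8 were, all positive (1.76%). There were 3 with the ordinary test of the methods (3.12%), 3 with array weights (3.26%) and 2 with trended robust variances (2.86%). Array weights gave 6 members over the 4 groups (5.96%), 6 for gain (8.38%) and 2 for intake (5.42%).

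Partner genes of the route, in 5 lists of 114 transcript clusters, were examined beside the set. They were called 7 times for a positive and 0 times for a negative interaction (4 cargo receptor and ER exit genes, 2 translocon genes and 1 GTPase gene), directions in which 1.15% and 1.66% of all transcript clusters were called, with 87 of 114 positive and a median of 0.22. By list, the interaction was positive in 22 of 30 cargo receptors and ER exit factors (median 0.35), 15 of 17 genes of the ER translocon and signal peptidase (0.29), 14 of 17 Arf and Rab GTPase clusters (0.28), 18 of 22 other SNAREs and fusion factors (0.18) and 18 of 28 tethers (0.10). For gain 4 were lower and 0 higher in high gain steers (2.29% and 1.19% of all transcript clusters), and for intake 1 was higher.

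The smallest interaction p of the lists was that of SEC61B, part of the ER protein translocon, at 0.89 (SE 0.28, limma p = 0.00531, exact permutation p = 0.00559). MIA3, the receptor that loads collagen and other large cargo into COPII carriers, had an interaction of 0.82 (SE 0.29, limma p = 0.0135, exact permutation p = 0.0121). RAB18, a GTPase of the ER and lipid droplets, had 0.97 (SE 0.41, limma p = 0.0323, exact permutation p = 0.0269). SCFD1, which binds STX5, had 0.53 (SE 0.31) and RINT1, a Golgi to ER tether, had 0.64 (SE 0.40), neither called. Over the 4 groups 3 of the 114 partner clusters were called (2.33% of all transcript clusters), those of SEC61B, KDELR2 and TRAPPC10. KDELR2, the receptor that returns ER proteins in COPI vesicles, and TRAPPC10, a subunit of a vesicle tether, had lower values in high gain steers. Their gain effects were -0.38 (SE 0.13) and -0.38 (SE 0.12).

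Cell type markers were read in the same model. The mean of the 10 hepatocyte markers ranged over 18.86 to 19.32 in HG-HI and 19.12 to 19.25 in LG-LI steers, against 18.84 to 19.39 in HG-LI and 18.75 to 19.37 in LG-HI steers. Their interaction was positive in 8 of 10 with a median of 0.31, and 0 were called. With the array set as a block 3 of the 10 were called (4.94% of all transcript clusters). Kupffer and macrophage markers leaned the same way over all steers, with 5 of 6 positive and a median of 0.24. Without 1 steer 2 to 5 were positive, with medians of -0.11 to 0.63. Of the 6, 1 was called for a positive interaction (1.15% of all transcript clusters) and 2 over the 4 groups (2.33%). The mean of these 6 ranged over 9.88 to 11.01 in HG-HI and 10.31 to 11.15 in LG-LI steers, against 9.75 to 11.02 in HG-LI and 9.57 to 10.99 in LG-HI steers. The 1 called was MARCO, a macrophage scavenger receptor named after its values were seen, with an interaction of 1.58 (SE 0.62). The 3 erythroid markers were all positive (median 0.27) with 0 called. Without 1 steer 1 to 3 of them were positive, with medians of -0.03 to 0.44. T and NK cell markers leaned the other way, with 1 of 6 positive, a median of -0.72 and 1 called, in the negative direction (1.66%). B and plasma cell markers did likewise, with 1 of 5 positive, a median of -0.42 and 0 called. With the array set as a block 1 marker was called in each of these 2 lists (4.94% of all transcript clusters). The mean of the 6 T and NK cell markers ranged over 6.85 to 7.30 in HG-HI and 6.99 to 7.14 in LG-LI steers, against 7.06 to 7.44 in HG-LI and 7.20 to 8.31 in LG-HI steers. All 3 smooth muscle markers found had a positive gain effect, with a median of 0.63, and 2 were called (1.19% of all transcript clusters in that direction). Their interaction was positive in 1 of 3 with a median of -0.51, and 1 was called, in the negative direction (1.66%). For intake 1 was called, also negative (1.64%). Interactions were positive in 4 of 6 endothelial markers (median 0.16), 2 of 6 cholangiocyte markers (-0.02) and 4 of 7 stellate and fibroblast markers (0.13). None of these was called for the interaction, and 1 stellate and fibroblast marker was called for intake, in the negative direction (1.64%). The part of these cell types in the coat and SNARE results was not tested.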

How the data were processed

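Liver RNA of 16 steers, 4 per phenotype group, was measured with 1 array per steer. The authors made the deposited log2 values with Signal Space Transformation, GC count normalization and RMA summarization (Affymetrix Expression Console), 1 value per steer for each of 26773 transcript clusters. The submitters' processing notes also name Transcriptome Analysis Console. The genome build, the software versions and any filter on dim probes were not given in the sources used here. These steps put the arrays on a common scale but left array medians of 7.16 to 7.47. The array annotation gave 1 symbol to 18790 clusters, several to 385 and none to 7598, and the Entrez identifiers of all 66 members matched RefSeq genes with the same symbol (ARS-UCD2.0 table).

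The values were used as deposited. limma 3.58.1 in R 4.3.3 was fitted to all transcript clusters with 1 mean per group and moderated variances (prior degrees of freedom 3.711, residual 12), and p-values were adjusted by Benjamini-Hochberg over 26773 clusters. The fit was tested on simulated data. Single genes were also tested by two-sided exact permutation, over all 2627625 partitions into 4 groups or all 12870 choices of 8 steers (smallest possible p 0.000155). Exchanges within array sets only were run as well. Steers were exchanged regardless of group, so that the null is no group difference of any kind. When 1 effect is tested, the other effects of the gene therefore add to the spread. Python 3.11.15 was used for tables and figures. Replicates are separate animals, and 4 arrays per group limit the precision. Members called at an unadjusted p of 0.05 or less are given by steer. In each role the 2 genes highest and the 1 lowest in mean signal and those with the largest gain, intake and interaction effects are named with group values, and in the other lists genes called over the 4 groups and the gene of each list with the smallest interaction p. The members, lists and tests were chosen with earlier results of these data known. Alternatives were quantile normalization, median subtraction, the unmoderated F test that the methods name, the array set as a block, a filter on low signal, trended robust variances, array weights, averaging of clusters with 1 symbol, and leaving out each steer.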

Additional observations from a re-analysis of the deposited data

Results flagged for a closer look

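In 6 of 128 groups of 4 values, over the 32 genes named in the text, 1 steer stood apart from the other 3 (Dixon's ratio, 95% level), where chance gives 6.4, or 1 in 20. HG-LI steer 20133337 had 8.07 for COPE (the others 8.69 to 8.80) and 13.70 for SEC24A (13.03 to 13.12). HG-HI steer 20133015 had 9.56 for SFT2D1 (8.36 to 8.43). LG-LI steer 20133403 had 6.17 for SFT2D3 (6.997 to 7.14) and 5.63 for VAMP1 (5.80 to 5.82), and LG-HI steer 20133452 had 6.17 for VAMP1 (5.62 to 5.71).

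The interaction had an exact permutation p of at most 0.05 for COPB2 (0.62, p = 0.00917), SAR1B (0.87, p = 0.0292), STXBP5 (0.66, p = 0.03) and COPZ1 (0.81, p = 0.0458). The permutation exchanged steers across all groups, so that its null is no group difference of any kind. None of the 4 passed adjustment over all transcript clusters in limma.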

How the results depend on the processing

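The number of calls moved with the settings. Percentages in brackets are the shares of all transcript clusters called in the same fits. Over the 4 groups 2 members were called (2.33%), 6 with array weights (5.96%) and 2 to 6 without 1 steer (1.83% to 3.53%). For gain 3 were called (3.48%), 6 with array weights (8.38%) and 2 to 5 without 1 steer (2.5% to 5.08%). For intake 1 was called (2.86%), 2 with array weights (5.42%) and 1 to 3 without 1 steer (2.23% to 5.19%). For the interaction 5 were called (2.81%), 9 with the array set as a block (4.94%) and 8 with array medians subtracted (3.04%). There were 3 with array weights (3.26%), 3 with the ordinary test of the methods (3.12%) and 2 with trended robust variances (2.86%). Without 1 steer there were 1 to 8 (2.15% to 3.41%). The mean effect over the members was -0.11 for gain (-0.16 to -0.07 without 1 steer), -0.04 for intake (-0.09 to 0.002) and 0.23 for the interaction (0.15 to 0.32). For gain it was -0.04 with the block, -0.06 with medians subtracted, -0.07 after quantile normalization and -0.18 with array weights. For intake it was 0.03 with the block and 0.02 after quantile normalization. For the interaction it lay between 0.20 and 0.29 over the other settings.

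Of the single genes, quantile normalization took the calls of COPB2 (0.56, limma p of 0.128), STXBP5 (0.61, p of 0.0812) and STXBP5L (-0.19, p of 0.0828). Array weights took those of SAR1B (0.64, p of 0.0622), SEC24D (0.80, p of 0.0741), STXBP5 (0.55, p of 0.0654) and STXBP5L (-0.18, p of 0.0667). Trended robust variances left each effect as it was and gave p of 0.0513 for COPB2, 0.053 for SAR1B and 0.0506 for SEC24D. The ordinary test gave 0.0506 for COPZ1 and 0.0648 for SEC24D, the low-signal filter 0.0507 for SEC24D, and medians subtracted 0.167 for STXBP5L (-0.17). The low-signal filter removed STXBP5L. Of the results of named genes under settings other than leaving out a steer, 73 kept direction and call and 14 kept direction only, and no direction was reversed. The cause was not tested. Scaling moved the balance of all calls: for the interaction 309 transcript clusters were positive and 444 negative as deposited, 471 and 342 with medians subtracted and 405 and 343 after quantile normalization. For gain they were 319 and 613, 495 and 467, and 519 and 590.

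No paired analysis was possible because the labels give no replicate numbers and no harvest day. The depth of arrays cannot be read from the values, and genes near the bottom of the signal range, STXBP5L and VAMP1, have little room to show a difference.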
